A study of Mus musculus with 15 samples.

Results

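Fcer2a and Cr2 are the mouse genes of CD23, a low-affinity receptor for IgE, and of the complement receptor CD21. They were taken by gene symbol and are 2 of the 19938 genes measured. They were chosen by their log2 RMA levels in the 4 sorted populations on all 15 arrays, so the levels and differences of both genes are given as a description, without tests. The cells were SwHEL B cells, whose engineered receptor recognises hen egg lysozyme. They carried the CD45.1 marker and were transferred into C57BL/6J recipients (CD45.2), which received sheep red blood cells coupled to the lysozyme mutant HEL3x. On day 10, IgG1+ germinal centre B cells of donor origin were sorted from the spleen, per the labels. Light zone cells had high CD86 and low CXCR4, dark zone cells high CXCR4 and low CD86. All cells thus shared the donor strain, the immunization and the day. High-affinity light zone cells (Lzhi) were measured on 3 arrays, low-affinity light zone cells (Lzlo) on 4, high-affinity dark zone cells (Dzhi) on 4 and low-affinity dark zone cells (Dzlo) on 4. The labels give females throughout and no age, and do not say how affinity was gated or whether a sample pooled mice. Replicates carry 5 experiment codes in their descriptions, merged here into experiments A to D because 1 code has another form on dark zone than on light zone samples. Experiment D has no Lzhi array.

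CD23 is a C-type lectin-like membrane protein of mature B cells that binds IgE and can be cut from the surface by the protease ADAM10. IL-4 acting through STAT6 and signals from CD40 are known to raise it, and follicular B cells are known to carry it. CD21 binds complement fragments attached to antigen and joins the tetraspanin CD81 in a coreceptor complex that lowers the threshold of B cell receptor signalling. The mouse gene Cr2 also encodes the longer complement receptor CD35 by alternative splicing. Both receptors are also known on follicular dendritic cells, the stromal cells that hold antigen in the light zone. Each gene had 1 probe set, so 1 value per array stands for all transcripts of a gene. Fewer cells of a type and less RNA per cell cannot be told apart in such sorted populations.

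The stretches around the transcription starts are shown because both genes had higher levels in the light zone and because the known inducers of CD23 act through DNA motifs. The windows are from RefSeq (GRCm38.p6), run from 250 bases before to 50 after a start, and lie on the minus strand. Fcer2a has 3 of them, at chr8:3694125-3694424, chr8:3690812-3691111 and chr8:3690341-3690640, of which the first and second are printed, and Cr2 has 1, at chr1:195176670-195176969. Capitals mark matches to the STAT6 motif TTCNNNNGAA, to the Notch factor motif of RBPJ, TGGGAA, and to TATAAA, on either strand.
Fcer2a, first window: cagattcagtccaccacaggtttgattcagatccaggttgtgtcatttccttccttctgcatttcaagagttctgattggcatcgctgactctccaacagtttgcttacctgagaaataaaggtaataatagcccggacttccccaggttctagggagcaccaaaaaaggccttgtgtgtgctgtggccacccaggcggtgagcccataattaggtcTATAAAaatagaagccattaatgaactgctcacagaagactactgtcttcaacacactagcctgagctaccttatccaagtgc
Fcer2a, second window: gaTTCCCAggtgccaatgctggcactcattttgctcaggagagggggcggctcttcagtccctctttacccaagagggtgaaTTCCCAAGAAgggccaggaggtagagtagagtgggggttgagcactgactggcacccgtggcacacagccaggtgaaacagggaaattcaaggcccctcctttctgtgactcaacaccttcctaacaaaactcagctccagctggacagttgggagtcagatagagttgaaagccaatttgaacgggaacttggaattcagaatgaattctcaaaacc
Cr2: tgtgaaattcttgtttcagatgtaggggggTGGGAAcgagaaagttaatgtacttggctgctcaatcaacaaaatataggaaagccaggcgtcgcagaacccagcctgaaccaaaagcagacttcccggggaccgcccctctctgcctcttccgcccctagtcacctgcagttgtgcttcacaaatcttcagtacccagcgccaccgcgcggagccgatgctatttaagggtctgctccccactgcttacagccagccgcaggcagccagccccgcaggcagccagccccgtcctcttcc
The second Fcer2a window held the STAT6 letters once, as TTCCCAAGAA at bases 83 to 92, and the RBPJ letters 2 times on the minus strand, at bases 3 to 8 and at bases 83 to 88 inside the STAT6 match. The third held the RBPJ letters at bases 46 to 51, and the Cr2 window held them at bases 31 to 36. TATAAA stood at bases 218 to 223 of the first Fcer2a window. Of all 32851 windows of the table, 6.95% held the STAT6 letters, 25.6% the RBPJ letters and 13.6% TATAAA. The E-box CANNTG was in all 4 windows and in 72.3% of the table. The STAT letters TTCNNNGAA (8.3% of windows) and the NF-kappaB motif (8.46%) matched none of the 4, which says only that these letters are not in these stretches. Such matches are a description of the letters, and the use of the 3 Fcer2a starts was not measured.

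Levels of different probe sets cannot be ranked, and no other B cell population was on the arrays used here, so germinal centre identity rests on the labelled sort. Bcl6, the germinal centre repressor, lay between 9.38 and 10.54 over the 15 arrays, and Rgs13, a regulator of G protein signalling, between 10.14 and 11.97 (log2 RMA values). Of the genes of the sort markers, Cd86 was higher in light zone cells by 1.04 ± 0.11 and the value of Cxcr4 was -0.69 ± 0.16 (log2 difference ± standard error). Array medians lay between 5.57 and 5.74. Precision is limited by how few arrays there are, and all p-values below measure the spread between these samples, which the labels do not tie to separate mice.

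Fcer2a placed the 4 sorted populations in separate ranges. In Lzhi arrays its level was 10.19, 10.02 and 10.17 (log2 RMA value, replicates 1, 2 and 4), and in Lzlo arrays it was 10.91, 10.81, 10.35 and 11.06 (replicates 1 to 4). In Dzhi arrays it was 7.98, 8.40, 8.44 and 8.26, and in Dzlo arrays 9.22, 9.23, 8.90 and 9.70. Every light zone array was thus above every dark zone array, and within each zone every high-affinity array was below every low-affinity array. The group means were 10.13 ± 0.09 in Lzhi (SD, n = 3), 10.78 ± 0.31 in Lzlo, 8.27 ± 0.21 in Dzhi and 9.26 ± 0.33 in Dzlo (SD, n = 4 each). Neighbouring groups were set apart by gaps of 0.16 between the lowest Lzlo and the highest Lzhi array, 0.33 between Lzhi and Dzlo and 0.46 between Dzlo and Dzhi. Of the 19938 genes, Fcer2a was the 1 gene whose 4 groups did not overlap in that order (0.00502%), and no gene did so in any other order. All light zone above all dark zone arrays was found for 16 genes (0.0802%), all light zone below all dark zone arrays for 19 (0.0953%), Lzhi below Lzlo without overlap for 457 (2.29%) and Dzhi below Dzlo for 95 (0.476%). The gene was chosen with this pattern in view, so nothing is read from these shares.

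**Figure D1:**
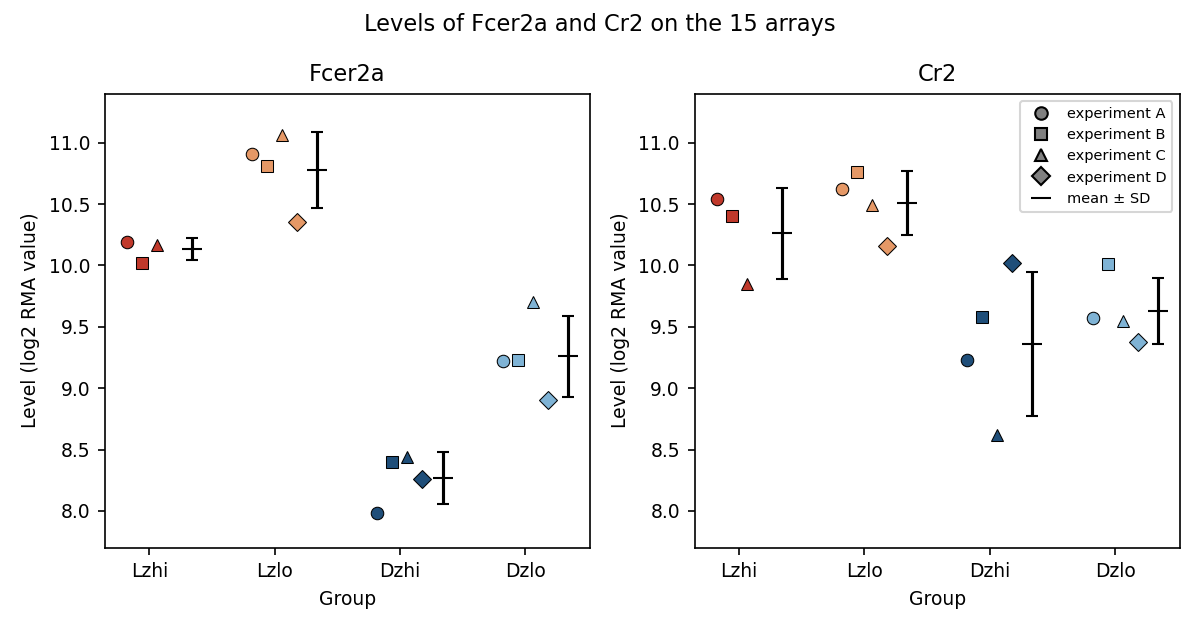
Levels of Fcer2a (left) and Cr2 (right) as log2 RMA values on the 15 arrays, by group. Symbols stand for the experiment codes and the bars for the group mean ± SD. The 4 groups of Fcer2a are separate, while Cr2 overlaps between neighbouring groups.

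Cr2, the CD21 gene, was also higher in light zone cells, with more overlap. Its level was 10.54, 10.40 and 9.85 in Lzhi arrays (replicates 1, 2 and 4) and 10.62, 10.76, 10.16 and 10.49 in Lzlo arrays (replicates 1 to 4). In Dzhi arrays it was 9.23, 9.58, 8.62 and 10.02, and in Dzlo arrays 9.57, 10.01, 9.38 and 9.55. The zones overlapped by 0.17, since Dzhi replicate 4 stood above the lowest light zone array, Lzhi replicate 4. The means were 10.26 ± 0.37 in Lzhi (SD, n = 3), 10.51 ± 0.26 in Lzlo, 9.36 ± 0.59 in Dzhi and 9.63 ± 0.27 in Dzlo (SD, n = 4 each). In order from the top these are Lzlo, Lzhi, Dzlo and Dzhi, the same order as for Fcer2a, but every neighbour in it overlaps the next. The pooled SD within groups was 0.261 for Fcer2a and 0.397 for Cr2, beside a median of 0.242 over all genes.

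Between zones over both affinities, Fcer2a was higher in light zone cells by 1.69 ± 0.13 (log2), or 3.22-fold, the 3rd highest value of the 19938 genes. Cr2 was higher by 0.89 ± 0.19, which is 1.85-fold and the 39th highest value. At each affinity the Cr2 difference was 0.90 ± 0.28 for Lzhi over Dzhi and 0.88 ± 0.26 for Lzlo over Dzlo. For Fcer2a it was 1.86 ± 0.19 for Lzhi over Dzhi and 1.52 ± 0.18 for Lzlo over Dzlo. Arrays of the same experiment gave the same direction each time. For Fcer2a, Lzhi minus Dzhi was 2.21, 1.63 and 1.73 in experiments A, B and C. Lzlo minus Dzlo was 1.69, 1.58, 1.36 and 1.45 in experiments A to D. For Cr2, Lzhi minus Dzhi was 1.31, 0.82 and 1.23, and Lzlo minus Dzlo 1.04, 0.75, 0.94 and 0.77, in the same orders. Each gene was thus above 0 in 7 of 7 pairs, of which the pairs of experiment B join its differently written codes, and in each pair the Fcer2a difference was larger than that of Cr2. The codes were taken to mark shared experiments, which the labels do not state. By title number, Lzhi replicate 4 would instead meet Dzhi replicate 4, and Cr2 was lower on that light zone array (9.85 against 10.02).

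Affinity separated Fcer2a within both zones. High-affinity cells had less of it, by -0.65 ± 0.19 in the light zone (1.57-fold) and -0.99 ± 0.18 in the dark zone (1.99-fold). The dark zone value was the 13th lowest of the 19938 in that comparison. Lzhi minus Lzlo was -0.72, -0.78 and -0.89 in experiments A, B and C. Dzhi minus Dzlo was -1.24, -0.83, -1.25 and -0.64 in experiments A to D. All 7 pairs lay below 0. The signed difference of the light zone minus that of the dark zone was 0.34 ± 0.26, or 0.52, 0.05 and 0.37 in experiments A, B and C. The affinity difference was thus larger in the dark zone on average, by a value within 2 standard errors of 0.

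For Cr2 the differences between affinities were about the size of their errors in the fit without the experiment code. They were -0.24 ± 0.28 for Lzhi minus Lzlo and -0.27 ± 0.26 for Dzhi minus Dzlo. Within experiments A, B and C, Lzhi minus Lzlo was -0.07, -0.37 and -0.64. Dzhi minus Dzlo was -0.34, -0.43, -0.93 and 0.64 in experiments A to D, so that experiment D ran the other way. Single arrays set these values. Without Dzhi replicate 3 the dark zone difference was -0.02, without Dzlo replicate 2 it was -0.14, and without Dzhi replicate 4 it was -0.49. The light zone difference was -0.04 without Lzhi replicate 4, -0.16 without Lzlo replicate 2, -0.38 without Lzhi replicate 1 and -0.36 without Lzlo replicate 3. The interaction of zone and affinity was 0.03 ± 0.38 for Cr2.

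**Figure D2:**
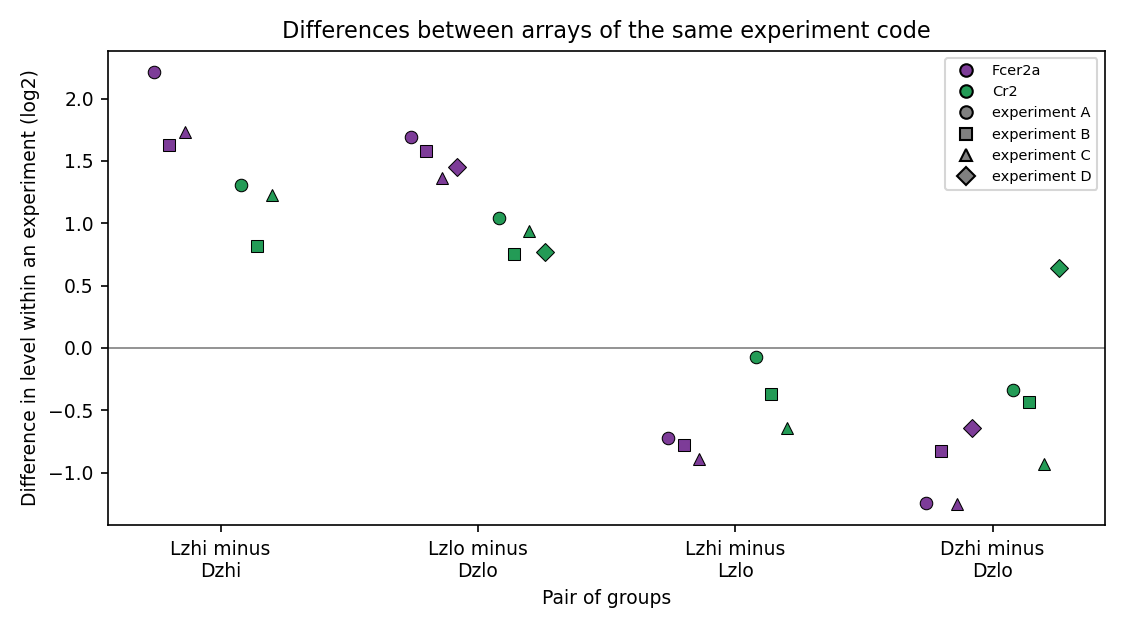
Difference in level (log2) between arrays of the same experiment code, for 4 pairs of groups, with Fcer2a and Cr2 in different colours and experiments as symbols. Both genes lie above 0 in all 7 zone pairs, Fcer2a lies below 0 in all 7 affinity pairs, and Cr2 does so in 6 of 7.

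The genes parted in how they varied inside groups. Over the 15 arrays their values had a Pearson r of 0.79 (Spearman rho 0.779), which mostly restates the distance between zones. Within the 7 light zone arrays r was 0.55 and within the 8 dark zone arrays it was 0.274. After the 4 group means were taken off, r was 0.109 and rho 0.064 over 15 arrays. Experiment C shows the contrast: Fcer2a lay 0.23 above its group means there on average and Cr2 was at -0.31 relative to its own. In experiment D the averages were -0.27 for Fcer2a and 0.02 for Cr2. There both genes were low on Lzlo replicate 3 (-0.43 for Fcer2a and -0.35 for Cr2) and Dzlo replicate 3 (-0.36 and -0.24). They parted on Dzhi replicate 4, at -0.01 for Fcer2a and 0.66 for Cr2. These correlations are descriptions over arrays that share their normalization and, in part, their experiment, and they carry no test.

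The genes most like each receptor over the 15 arrays differed. For Fcer2a the highest Pearson correlation was that of Cd72, the gene of an inhibitory B cell coreceptor, at r = 0.961 (rho 0.979), with 0.797 among light zone and 0.922 among dark zone arrays. Cd72 was at 9.74, 9.62 and 9.06 in Lzhi, 10.23, 9.98, 10.10 and 10.56 in Lzlo, 7.60, 8.53, 8.36 and 7.87 in Dzhi, and 8.98, 8.61, 8.53 and 9.33 in Dzlo arrays. It thus followed the same order of groups, and overlapped between Lzhi and Dzlo and, at 8.53, met between Dzhi and Dzlo. Next came the costimulator and sort marker gene Cd86 (r = 0.943), the interferon gamma receptor gene Ifngr2 (0.928), the homeobox factor gene Hhex (0.928) and the immediate early gene Egr2 (0.905). Values over all 15 arrays include the distance between zones, for which Cd86 was part of the sort. Among light zone arrays r was 0.725, 0.615, 0.773 and 0.449 in that order. Among dark zone arrays it was 0.808, 0.861, 0.737 and 0.599. For Cr2 the highest was Dock10, which encodes an exchange factor for small GTPases, at r = 0.972 (rho 0.982). Its r was 0.947 among light zone arrays, 0.954 among dark zone arrays and 0.949 for the deviations from group means, so that Dock10 followed Cr2 from array to array inside groups as well. Dock10 was at 9.53, 9.31 and 8.76 in Lzhi, 9.76, 10.01, 8.93 and 9.25 in Lzlo, 7.94, 8.47, 7.41 and 8.89 in Dzhi, and 8.75, 8.92, 8.33 and 8.73 in Dzlo arrays. Zfp239 (r = 0.909), Ablim1 (0.893), Nxpe2 (0.892) and Cfp (0.884) followed. Their r was 0.839, 0.981, 0.919 and 0.202 among light zone arrays, and 0.875, 0.877, 0.694 and 0.826 among dark zone arrays. Cfp encodes properdin, which stabilises the alternative pathway convertase of complement. None of the 5 genes nearest to Fcer2a was among the 5 nearest to Cr2.

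**Figure D3:**
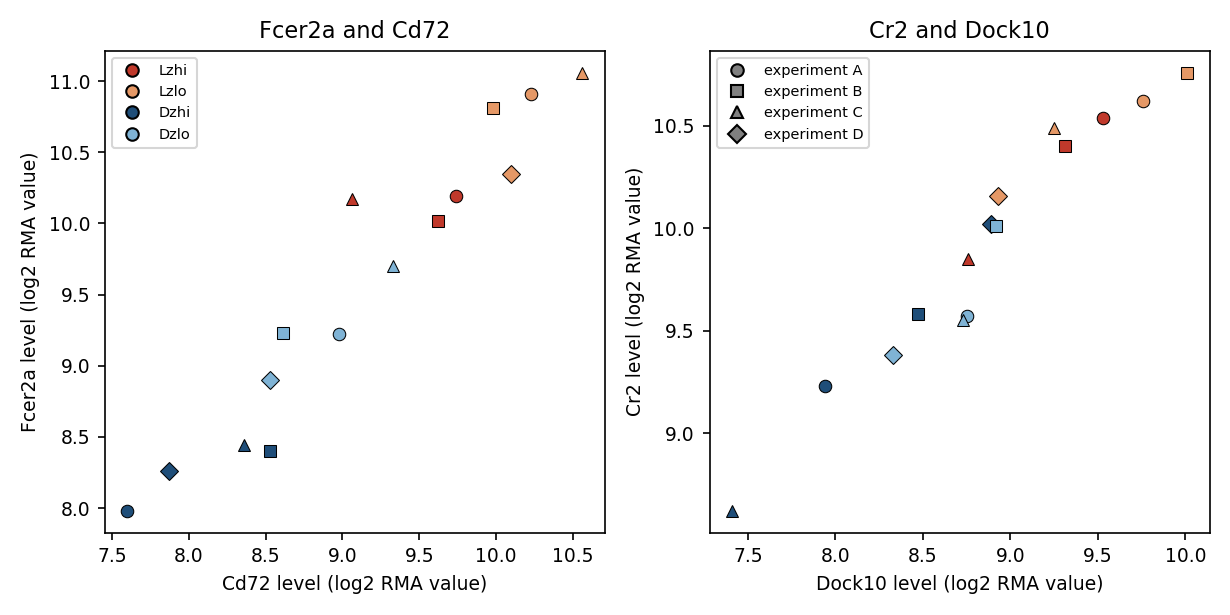
Level of Fcer2a against that of Cd72 (left) and of Cr2 against that of Dock10 (right), as log2 RMA values, 1 point per array, with groups as colours and experiments as symbols. The points follow a line in both panels (r = 0.961 and 0.972 over 15 arrays), and the Cr2 points keep to it within groups.

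The other genes of the receptors' pathways were then tested between zones, in the limma fit over all 19938 genes with Benjamini-Hochberg adjustment. Of 176 measured genes in 7 pathway lists and 3 B cell lists, 1 passed, beside 31 of all genes (0.155%), 17 of them higher (0.0853%) and 14 lower (0.0702%). That gene was Nfkbia, whose product holds NF-kappaB in the cytoplasm and which NF-kappaB itself induces. It was at 8.41, 7.80 and 7.81 in Lzhi and 8.45, 8.03, 7.85 and 8.13 in Lzlo arrays, against 6.77, 7.36, 7.23 and 6.99 in Dzhi and 7.22, 7.02, 7.32 and 7.34 in Dzlo arrays. The zones did not overlap, and Nfkbia was higher in light zone cells by 0.91 ± 0.13 (limma, adjusted p = 0.01). For Lzhi over Dzhi alone 0 of the 176 passed, beside 3 of all genes (0.015%), and for Lzlo over Dzlo 0, beside 2 (0.01%). Of all genes, 559 and 703 had an unadjusted p under 0.05 in these comparisons. With the experiment code as a block, 11 of the 176 passed over both affinities, 8 higher (Cd36 among them) and 3 lower (Gcsam and Neil1 among them). Of all genes 90 passed (0.451%). For Lzhi over Dzhi the block called Cd93 (lower), beside 11 of all genes (0.0552%). For Lzlo over Dzlo it called Ccr6 (higher), beside 30 (0.15%). That block merges the forms of code B, and with the 5 codes as written Nfkbia missed the threshold (adjusted p = 0.0675). Over all genes the median difference was -0.01, with 48.0% above 0.

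Of the genes known to induce CD23, the CD40 and NF-kappaB list lay mostly above 0 in light zone cells, with 17 of 20 members above 0, a median of 0.26 and 1 passed. Cd40 itself, the receptor for T cell help, averaged 8.80 in Lzhi, 9.08 in Lzlo, 8.24 in Dzhi and 8.34 in Dzlo arrays, a difference of 0.65 ± 0.14 (adjusted p = 0.136, or 0.0376 with the experiment block). Birc3, an NF-kappaB target, had a value of 0.74 ± 0.17 (adjusted p = 0.149). The IL-4 and STAT6 list had 13 of 17 above 0, a median of 0.09 and 0 passed. Stat6 had a value of 0.33 ± 0.16 and Il4ra, the gene of the IL-4 receptor chain, 0.41 ± 0.27 (adjusted p = 1.0 each). Bcl2l1, a survival gene, was at 0.64 ± 0.16 (adjusted p = 0.217) and the phosphatase gene Ptpn6 at 0.41 ± 0.10 (adjusted p = 0.24, or 0.0208 with the block). Bcl6, a repressor in this list, was at 0.11 ± 0.14.

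In the Notch list, whose receptor Notch2 is needed for marginal zone B cells, the median was 0.01 between zones, 14 of 26 genes were above 0 and 0 passed. The receptor gene Notch2 had a value of 0.06 ± 0.16 and Rbpj, the DNA-binding factor, 0.22 ± 0.16. The Notch targets Hes1, Nrarp and Dtx1 were at 0.39 ± 0.15, 0.26 ± 0.11 and 0.39 ± 0.19 (adjusted p = 0.844, 0.984 and 1.0). Of the protease and integrin genes of CD23 shedding, 10 of 16 lay above 0 with a median of 0.06, and 0 passed. Adam10 was at -0.16 ± 0.24, Adam17 at 0.28 ± 0.18 and Itgb3, an integrin chain gene, at -0.58 ± 0.13 (adjusted p = 0.152).

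The partners of CD21 at the B cell receptor lay on both sides of 0, with 12 of 20 above it, a median of 0.08 and 0 passed. Cd81 averaged 10.61 in Lzhi, 10.87 in Lzlo, 10.53 in Dzhi and 10.66 in Dzlo arrays, a difference of 0.15 ± 0.19. The adaptor gene Pik3ap1 and the inhibitory lectin gene Cd22 were each at 0.41 ± 0.12 (adjusted p = 0.364 and 0.43, or 0.0208 and 0.042 with the block). Among complement receptors and regulators, 12 of 19 were above 0 with a median of 0.02 and 0 passed. Without Lzlo and Dzlo replicates 3, on which markers of other cells were high, 6 of 19 were above 0 and the median was -0.04. Cfp, at 0.93 ± 0.18, was as far apart as Cr2 (adjusted p = 0.0832, or 0.00727 with the block), and Cd93, once described as a C1q receptor, was at -0.72 ± 0.16 (adjusted p = 0.149, or 0.0161 with the block). Cr1l, the membrane regulator Crry, was at 0.09 ± 0.21. The Fc receptors and Fc receptor-like genes had 12 of 17 above 0, a median of 0.06 and 0 passed. Fcgr2b, the inhibitory IgG receptor gene, was at 0.19 ± 0.21 and Fcmr, the IgM receptor gene, at 0.37 ± 0.21 (adjusted p = 1.0 each).

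**Figure D4:**
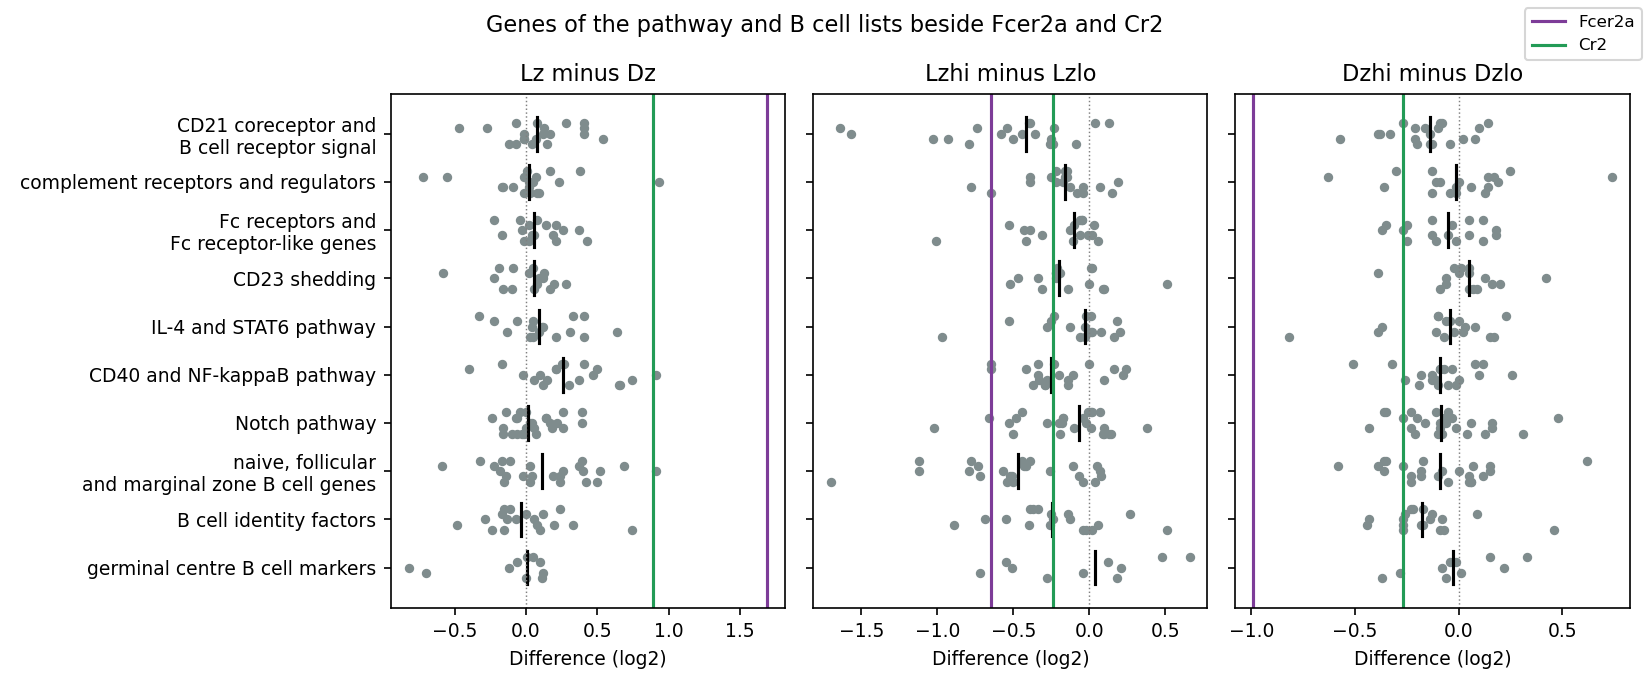
Difference (log2) of each measured gene of the 10 lists, as grey points, for light zone minus dark zone, Lzhi minus Lzlo and Dzhi minus Dzlo, with black marks at list medians and coloured lines at the values of Fcer2a and Cr2. The Fcer2a line stands beyond every listed gene between zones (1.69) and in the dark zone (-0.99), and within the cloud in the light zone (-0.65).

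Between affinities, 0 of the 176 genes passed in either zone in limma, as did 0 of all genes (0.0% in each). Of all genes, 797 had an unadjusted p under 0.05 in the light zone and 320 in the dark zone. High minus low affinity was above 0 for 49.9% of all genes in the light zone and 50.4% in the dark zone, with a median of 0.0 in each. Within the light zone, 18 of the 20 CD21 coreceptor and B cell receptor genes lay below 0 in high-affinity cells, with a median of -0.42. The mean level of that list was 9.07 to 9.26 in Lzhi and 9.36 to 10.24 in Lzlo arrays, highest on Lzlo replicate 3. Its lowest differences were those of Ifitm3 (-1.64 ± 1.23) and Ifitm2 (-1.57 ± 0.94), genes of interferon-induced membrane proteins, which reached 11.88 and 10.06 within Lzlo. Markers of other cells lay below 0 in the same comparison, with 12 of 12 T cell genes (median -0.42), 11 of 12 neutrophil genes (median -1.19), 10 of 11 myeloid genes (median -0.08) and 8 of 10 NK cell genes (median -0.14). Without Lzlo and Dzlo replicates 3, 19 of the 20 coreceptor and receptor genes lay below 0 (median -0.34), beside 9 of 12 T cell genes (median -0.11), 10 of 12 neutrophil genes (median -0.16), 6 of 11 myeloid and 5 of 10 NK cell genes. The part of other cells in these shifts was not tested. The IL-4 and STAT6 list had 10 of 17 below 0 with a median of -0.03, or 7 of 17 and 0.10 without those 2 arrays. Il4ra was at 9.41, 9.05 and 9.86 in Lzhi arrays and 9.94, 9.94, 11.16 and 10.58 in Lzlo arrays, a difference of -0.97 ± 0.40 (unadjusted p = 0.0296, adjusted p = 1.0). In dark zone cells Il4ra was at 8.70, 8.64, 9.65 and 9.41 in Dzhi and 9.35, 9.31, 10.72 and 10.30 in Dzlo arrays, a difference of -0.82 ± 0.37 (unadjusted p = 0.0447, adjusted p = 1.0). Within experiments Il4ra was lower with high affinity in 7 of 7 pairs, by -0.53, -0.89 and -0.72 in the light zone (A, B and C) and by -0.65, -0.66, -0.64 and -1.31 in the dark zone (A to D). The dark zone groups overlapped when experiments were not paired. It was also higher in light zone cells in 7 of 7 pairs, by 0.20 to 0.71, with an adjusted p of 0.0744 between zones under the experiment block in limma. Its highest arrays were Lzlo replicate 3 and Dzlo replicate 3, on which Fcer2a was lowest in its group. Notch2 was at 5.87, 5.98 and 5.61 in Lzhi arrays and 6.54, 6.31, 7.20 and 7.31 in Lzlo arrays, a difference of -1.02 ± 0.23 (unadjusted p = 0.000556, adjusted p = 1.0) without overlap. In the dark zone its difference was -0.43 ± 0.21. Bcl6 was at -0.28 ± 0.20 in the light zone and -0.37 ± 0.19 in the dark zone, and Pax5, the B cell identity factor, at -0.02 ± 0.27 and -0.27 ± 0.25. Of 18 B cell identity genes, 14 lay below 0 in the light zone (median -0.25) and 16 in the dark zone (median -0.17). Without Lzlo and Dzlo replicates 3 these were 15 (median -0.15) and 13 (median -0.07). In the light zone Bach2 was at -0.89 ± 0.29 and Ets1 at -0.39 ± 0.13.

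Naive follicular B cells also carry both receptors, and marginal zone B cells carry CD21 with little CD23. The levels of the genes of these cells were therefore set beside the values. The mean level of 24 such genes, without Fcer2a and Cr2, was 6.69 to 6.86 in Lzhi, 7.0 to 7.65 in Lzlo, 6.65 to 7.05 in Dzhi and 6.80 to 7.17 in Dzlo arrays, highest on Lzlo replicate 3 and, among dark zone arrays, on Dzlo replicate 3. Between zones the list therefore overlapped where Fcer2a did not, with 15 of 24 above 0, a median of 0.11 and 0 passed. Between affinities in the light zone 20 of 24 lay below 0 in high-affinity cells with a median of -0.47, or 19 of 24 and -0.36 without Lzlo and Dzlo replicates 3. The T cell and neutrophil markers given above lay below 0 in that comparison too. Among Lzlo arrays the list was highest on replicate 3, where Fcer2a was lowest and neutrophil and T cell markers were highest. Genes of the list varied unequally within Lzlo, with Plac8 between 5.87 and 10.27 and Ccr6 between 5.64 and 6.07. The part of other cells in the level of the list on that array was not tested. In the dark zone the ranges of the list overlapped and its median was -0.09. Ccr6, a chemokine receptor gene of this list, was at 0.52 ± 0.10 between zones (adjusted p = 0.0678, or 0.0161 with the block) and at -0.79 ± 0.14 for Lzhi minus Lzlo (adjusted p = 0.751). Pecam1 was at 0.69 ± 0.14 between zones (adjusted p = 0.107), -0.73 ± 0.21 for Lzhi minus Lzlo and -0.58 ± 0.19 for Dzhi minus Dzlo. Other genes of the list ran opposite to Fcer2a. Foxp1 was lower in light zone cells, at -0.59 ± 0.15 (adjusted p = 0.247 in limma). Cmah was at -1.12 ± 0.35 for Lzhi minus Lzlo but at 0.62 ± 0.33 for Dzhi minus Dzlo. The cells were sorted as IgG1+ donor germinal centre cells, per the labels, and the part of any naive cells in the Fcer2a difference was not tested.

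Of 16 follicular dendritic cell markers, 7 were above 0 between zones, with a median of -0.02 and a range of -0.33 to 0.19, and 0 passed. Mfge8, the gene of a secreted protein that helps clear dying cells, had the lowest value, at -0.33 ± 0.10 (adjusted p = 0.536). Cxcl13, the chemokine gene of these cells, averaged 4.93 in Lzhi, 4.87 in Lzlo, 4.93 in Dzhi and 4.83 in Dzlo arrays. Fcgr2b, which B cells express too, had the highest value, 0.19 ± 0.21. The part of follicular dendritic cell RNA in the Cr2 levels was not tested. Neutrophil markers reached a mean level of 9.19 on Lzlo replicate 3 and 7.83 on Dzlo replicate 3, both of experiment D, and lay between 4.97 and 6.65 on the other 13 arrays. T cell, myeloid and NK cell markers were highest on Lzlo replicate 3 too, at 6.73, 6.88 and 6.31. On these 2 arrays Fcer2a was the lowest of its group (10.35 and 8.90), and Cr2 likewise (10.16 and 9.38). Without them Fcer2a was at -0.80 for Lzhi minus Lzlo and -1.11 for Dzhi minus Dzlo, and Cr2 at -0.36 and -0.35. Dzhi replicate 4 of experiment D was kept in that fit. For Dzhi minus Dzlo, 12 of 12 neutrophil genes then lay above 0 (median 0.57), against 6 of 12 with all arrays. So did 9 of 11 myeloid, 8 of 10 NK cell and 8 of 12 T cell genes, so the dark zone stayed uneven in these markers. Plasma cell markers were highest in Dzhi arrays, at 7.76 to 7.85, against 7.31 to 7.68 in Lzhi, 7.26 to 7.63 in Lzlo and 7.32 to 7.64 in Dzlo arrays. Dzhi is also the group with the lowest Fcer2a, and the part of plasma cell RNA in that was not tested.

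**Figure D5:**
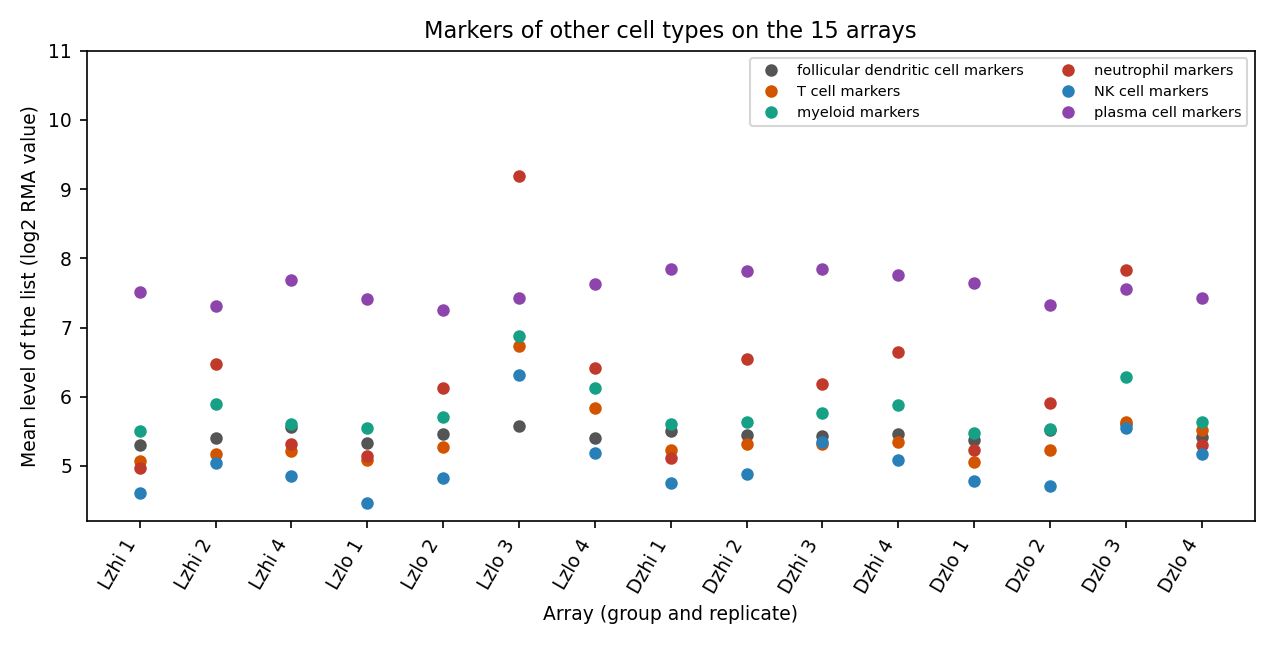
Mean level (log2 RMA value) of 6 lists of markers of other cell types on each of the 15 arrays, 1 point per list and array. Neutrophil markers stand at 9.19 on Lzlo replicate 3 and 7.83 on Dzlo replicate 3, against 4.97 to 6.65 on the other 13 arrays.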

How the data were processed

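Amplified RNA of 15 sorted samples was put on whole-transcript arrays, per the labels' protocols. The deposited table holds log2 values for 28853 probe sets, made by the authors with RMA (background correction, quantile normalization and summarising of probes), per the submitters' processing notes. Those notes give mm8 as build. The RMA software is not given in the sources used here, and no detection calls were used. Of the probe sets, 21789 had 1 gene symbol in the platform annotation, 1621 several and 5443 none. Those with 1 symbol were kept, with the highest mean per gene, which left 19938 genes and no filter on dim ones. All columns belong to a sample, and no pair of arrays correlated above 0.993.

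The lmFit and eBayes functions of limma 3.58.1 (R 4.3.3) estimated the mean of each of the 4 groups from all 15 arrays (11 residual degrees of freedom). Errors of differences are its standard errors, and p-values were adjusted by Benjamini-Hochberg over all genes of a comparison. The steps were tested on simulated data. The members, lists and rules were chosen with earlier results of these data known. The rule names the 2 receptors, every listed gene that passed, the genes of lowest p per list, a fixed set of pathway genes and the 5 genes most correlated with each receptor, without predicted genes, olfactory receptors, small RNAs and antigen receptor segments. Not all are printed. Of 264 listed genes, 22 were not analysed here.

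Codes in the sample descriptions were taken to mark a shared experiment, which the labels do not state. Between groups, deviations of arrays with 1 merged code correlated at 0.288 on average over 21 pairs, beside -0.082 over 63 pairs of different codes. Pairs with the same title number correlated at 0.227 on average, also over 21 pairs. Pairing by title number differs from pairing by code only in that Dzhi replicates 3 and 4 change places. These averages are close and do not decide between pairing by code and by title number. Values with the code as a block stand beside some of the results that it changed. Other settings varied the normalization, probe set rule, filter, variance model, block, arrays and threshold.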

Additional observations from a re-analysis of the deposited data

Results flagged for a closer look

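Among 66 groups of 4 values checked for a sample far from the rest, 2 held one, and chance alone flags about 5% of such groups. Adam10, the gene of the protease that sheds CD23, was at 7.19 on Lzlo replicate 3, while the other Lzlo arrays were at 8.72, 8.55 and 8.63. That array also had the lowest Fcer2a level of its group and the highest neutrophil markers. Stat6 was at 8.17 on Dzhi replicate 3, while the other Dzhi arrays were at 7.82, 7.85 and 7.87. That array had the lowest Cr2 level of all arrays, at 8.62.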

How the results depend on the processing

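Under the alternatives run, the zone and affinity differences of Fcer2a and Cr2 kept their direction, and none moved by more than the spread between replicates. Leaving out each array in turn gave Fcer2a 1.63 to 1.76 between zones, -0.80 to -0.56 for Lzhi minus Lzlo and -1.11 to -0.85 for Dzhi minus Dzlo. It gave Cr2 0.76 to 1.00 between zones, -0.38 to -0.04 for Lzhi minus Lzlo, -0.49 to -0.02 for Dzhi minus Dzlo and -0.22 to 0.24 for the interaction. Without experiment D, Cr2 was at -0.57 for Dzhi minus Dzlo. With the title number as a replicate block, Fcer2a was at -0.72 ± 0.18 for Lzhi minus Lzlo and Cr2 at -0.39.

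Counts of called genes depended on the setting, and the cause was not tested. Between zones over both affinities (31 genes), 49 were called at an adjusted p under 0.1, 68 with array weights, 90 with the merged experiment block, 49 after a repeated quantile normalization and 83 with the replicate block. The count was 18 without Lzhi replicate 2, 19 without Dzlo replicate 1, 20 without Lzhi replicate 1 or Lzlo replicate 2, and 18 to 37 over all arrays left out. For Lzhi over Dzhi (3 genes), it was 5 at 0.1, with weights, with quantile normalization and with Lzlo and Dzlo replicates 3 left out, which was chosen after seeing the data. It was 7 over all probe sets and with the replicate block, 11 with the merged block, 1 with the 5 codes as written and with only these groups, 6 without experiment D, and 1 to 4 without single arrays. For Lzlo over Dzlo (2 genes), it was 13 at 0.1, 1 over all probe sets, 16 with weights, 30 with the merged block, 11 with 5 codes and with quantile normalization, 7 among genes above the median, 8 with the mean of probe sets, 0 with only these groups, 18 with the replicate block, 4 without experiment D, and 0 to 4 without single arrays. For Dzhi minus Dzlo (0 genes), 3 probe sets and 1 gene after quantile normalization were called.

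Of the 176 listed genes, the 1 called between zones became 3 at 0.1 and with quantile normalization, 5 with weights, 2 with median centring, with an intensity trend and without experiment D, 11 with the merged block, 9 with the replicate block, and 1 to 2 without single arrays. For Lzhi over Dzhi, 1 was called with the merged and the replicate block. For Lzlo over Dzlo, 1 was called at 0.1, with weights, median centring, either experiment block, an intensity trend, the mean of probe sets and the replicate block, 2 with quantile normalization, and 0 to 1 without single arrays. Nfkbia was at 0.95 with 5 codes, with adjusted p = 0.0675, and at 0.80 to 0.96 without single arrays.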

Other observations

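Deviations from the group means gave other neighbours than the levels did. For Fcer2a the highest were Eif4enif1 (r = 0.941), which encodes a carrier of the translation factor eIF4E, Timm44 (0.933) of mitochondrial import, Synrg (0.929), Pitpnb (0.928) and Nt5c3 (0.919), over 15 arrays. Like Fcer2a, each of these genes was lowest in its group on Lzlo replicate 3 and on Dzlo replicate 3 (8.88 and 8.83 for Eif4enif1). Those arrays had the highest neutrophil markers. None of these genes differed from 0 by more than 2 standard errors between zones, with values such as 0.07 ± 0.15 for Eif4enif1 and 0.11 ± 0.32 for Nt5c3. For Cr2 they were Zfp606 (r = 0.961), Wdr78 (0.949), Dock10 (0.949), Suco (0.943) and Rfx7 (0.937). Of these, Wdr78 had a difference opposite to that of Cr2, at -0.80 ± 0.29 between zones (adjusted p = 0.775), and Dock10 was at 0.91 ± 0.23 (adjusted p = 0.21). Suco was at 8.30, 7.96 and 6.61 in Lzhi, 8.26, 8.22, 6.97 and 7.46 in Lzlo, 7.36, 7.83, 6.30 and 8.23 in Dzhi, and 7.65, 8.04, 6.84 and 7.23 in Dzlo arrays. Its low arrays, Lzhi replicate 4, Lzlo replicate 3, Dzhi replicate 3 and Dzlo replicate 3, are those on which Cr2 was lowest in its group. These correlations were picked as the highest of 19938 and carry no test.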
